A study of Mus musculus with 12 samples.

Results

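The integrated stress response was followed through 10 mouse genes of the ATF4 pathway: *Atf4* itself and *Atf3*, *Ddit3*, *Chac1*, *Asns*, *Trib3*, *Ppp1r15a*, *Sesn2*, *Psat1* and *Eif4ebp1*. They were listed by name as ATF4 pathway genes, and all 10 were among the 20620 genes of the deposited count table. Whole testes of C57BL/6 mice at postnatal day 16 were either *Mael*+/- or *Mael*-/-. *Mael* encodes Maelstrom, a germ cell protein needed for piRNAs to silence transposons. Each genotype had 3 replicates, and each testis extract gave 1 library of total RNA and 1 library of ribosome footprints, for 12 libraries in all. Both genotypes therefore shared strain, age, cycloheximide at dissection, and at least 1 disrupted *Mael* allele, with no *Mael*+/+ group in this comparison.

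In the integrated stress response, kinases that sense amino acid shortage, misfolded protein, haem shortage or double-stranded RNA phosphorylate the initiation factor eIF2α. General initiation then falls while the mRNA of the transcription factor ATF4 is translated more, which depends on short reading frames that start ahead of its coding region. ATF4 then raises the transcription of genes for amino acid synthesis and transport, for redox balance, and for the feedback that removes the phosphate from eIF2α. The response thus has a translational readout, footprints beyond RNA on *Atf4*, and a transcriptional one, the RNA of its targets.

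The upstream reading frames are shown first, since the translation of *Atf4*, *Ddit3* and *Ppp1r15a* is known to be controlled through them. In the RefSeq mRNAs of the build GRCm38.p6, 6 of the 10 genes had at least 1 ATG ahead of the main start, against 48.5% of the 14312 genes with both lengths and enough counts. *Atf4* (chr15:80255184-80257545, plus strand), whose longest mRNA had 3 upstream ATGs, is shown with the last 2 of them and the main start, 6 bases before and 4 after each ATG, which is in capitals.

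Atf4 upstream frame of 3 codons: gccaccATGgcgt
Atf4 upstream frame of 59 codons: taagccATGgcgc
Atf4 main start: cacaacATGaccg

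The frame of 59 codons ran past the main start in another frame, while those of 36 codons and of 3 codons ended before it. *Ddit3* (chr10:127290793-127296291, plus strand) had 2 upstream ATGs in 1 frame, 9 bases apart in the mRNA at positions 37 and 46, opening 34 and 31 codons.

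Ddit3 upstream frame of 34 codons: tatatcATGttga
Ddit3 upstream frame of 31 codons: ttgaagATGagcg
Ddit3 main start: gcagtcATGgcag

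Both frames ended before the main start in the longer of the 2 RefSeq mRNAs of *Ddit3*, but ran into the coding region, with 87 and 84 codons, in the shorter one. *Ppp1r15a* (chr7:45522917-45526268, minus strand) had 3 upstream ATGs, whose frames of 45, 34 and 26 codons all ended ahead of the coding region.

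Ppp1r15a upstream frame of 45 codons: tggacgATGttgg
Ppp1r15a upstream frame of 34 codons: gattacATGcgat
Ppp1r15a upstream frame of 26 codons: ggcgacATGaacc
Ppp1r15a main start: agacacATGgccc

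*Atf3*, *Sesn2* and *Psat1* had 1 upstream ATG each, the one of *Psat1* running into the coding region. *Chac1*, *Asns*, *Trib3* and *Eif4ebp1* had none.

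**Figure D1:**
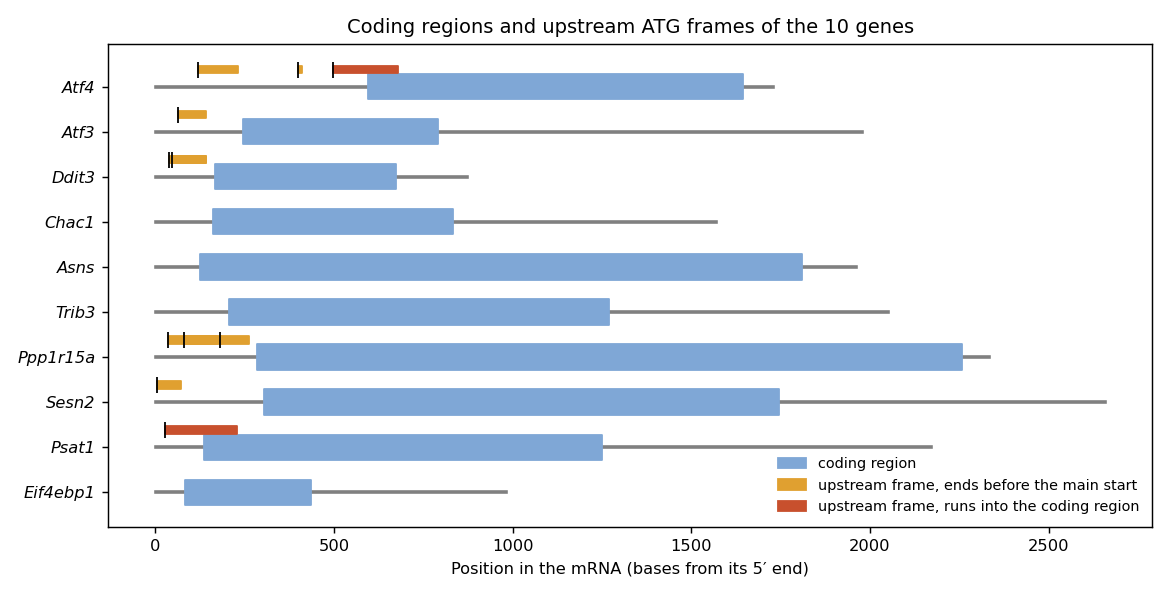
RefSeq mRNAs of the 10 genes drawn to scale in bases from the 5′ end: grey lines are mRNAs, blue boxes coding regions, and thin bars the frames opened by upstream ATGs (black ticks). *Atf4* and *Psat1* have a frame that runs into the coding region, and *Chac1*, *Asns*, *Trib3* and *Eif4ebp1* have no upstream ATG.

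The second level is the promoter, where ATF4 binds with C/EBP partners at a composite element. The letters TGATGNAA, searched on both strands (TTNCATCA on the other) in the 250 bases before and 50 after each RefSeq start site, occurred in 1304 of 32851 promoters (3.97%). The table held a promoter for 9 of the 10 genes, and 4 of these had the letters. They are printed in the direction of the gene with the matching 8 letters in capitals.

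Atf3 (chr1:191183425-191183454, minus strand): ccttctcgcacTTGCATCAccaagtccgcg
Chac1 (chr2:119351038-119351067, plus strand): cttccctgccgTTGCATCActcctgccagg
Asns (chr6:7693214-7693243, minus strand): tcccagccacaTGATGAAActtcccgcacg
Trib3 (chr2:152344028-152344057, minus strand): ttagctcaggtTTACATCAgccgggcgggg

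The match began 110 bases ahead of the start site in *Atf3*, 193 in *Chac1* and 23 in *Asns*, and at base 15 of the transcript in *Trib3*. No match in *Atf4*, *Ddit3*, *Ppp1r15a*, *Sesn2* and *Psat1* says only that these letters are not in this window.

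Gene totals were 13697267 to 27462358 counts in the RNA libraries and 7609932 to 13233565 in the footprint libraries. *Mael* had 3800 to 5045 RNA counts in the *Mael*+/- libraries and 0 to 2 in the *Mael*-/- libraries, so the labels held. In footprints it had 660 to 1294 counts against 0, 0 and 7. *Mael*+/- extract 1 stood apart: the summed level of 14 pachytene spermatocyte markers was 801 CPM (gene counts scaled to a common library size with the trimmed mean of M-values, TMM) in its RNA, against 296 and 317 in the other two *Mael*+/- extracts and 240 to 273 in the *Mael*-/- extracts. The corresponding footprint sums were 931, against 278 and 330, and 236 to 282. Sums of 9 spermatogonial markers, at 1002 to 1204 CPM in *Mael*+/- RNA and 1019 to 1089 CPM in *Mael*-/- RNA, overlapped. In whole testis, fewer cells of a type and less RNA per cell cannot be told apart.

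Relative to length, *Atf4* had the highest RNA level of the 10 genes and only the fifth highest footprint level. RNA was divided by exon length and footprints by coding length, giving CPM per kilobase. In the *Mael*+/- libraries *Atf4* RNA stood at 86.8 ± 5.53 (SD, n = 3), followed by *Psat1* at 80.3 ± 8.02, *Eif4ebp1* at 69.1 ± 13.9, *Sesn2* at 63.8 ± 7.52 and *Asns* at 51.7 ± 5.88. Each of these overlapped its neighbour in the order. *Ddit3* at 25.7 ± 2.93 and *Ppp1r15a* at 19.4 ± 2.85 overlapped each other but not *Asns*. Below the median tested gene, which had 10.5, came *Atf3* at 5.41 ± 2.40, *Trib3* at 2.28 ± 0.436 and *Chac1* at 0.617 ± 0.276, with no overlap between neighbours. In the footprints of the same extracts *Psat1* led with 183 ± 29.0, ahead of *Sesn2* at 131 ± 16.5, *Asns* at 92.9 ± 8.65, *Eif4ebp1* at 66.7 ± 9.90 and *Atf4* at 58.6 ± 7.89. Only *Eif4ebp1* and *Atf4* overlapped among these. *Ddit3* had 19.8 ± 1.63, *Ppp1r15a* 12.2 ± 2.46, *Atf3* 9.73 ± 5.81, *Trib3* 3.22 ± 0.701 and *Chac1* 0.950 ± 0.364, against 23.8 for the median tested gene. *Ppp1r15a* lay above the median gene in RNA and below it in footprints in both genotypes, with 20.1 ± 1.12 and 12.3 ± 0.487 in *Mael*-/- against medians of 10.4 and 23.4. *Ddit3* did so in *Mael*+/- alone: in *Mael*-/- its footprints, at 23.9, 28.1 and 25.7, were all just above the median.

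How many footprints each mRNA carried for its RNA, and whether this differed from the median gene, was tested with edgeR over both genotypes. Among all 14312 genes 33.4% were called lower and 35.4% higher than the median gene, so a call alone is no mark of these genes. Of the 10, 4 were called lower, *Ppp1r15a*, *Atf4*, *Ddit3* and *Eif4ebp1*, and 2 higher, *Sesn2* and *Psat1*. The number called was also 6 without both libraries of *Mael*+/- extract 1.

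*Ppp1r15a* encodes GADD34, which brings a phosphatase to eIF2α and so closes the response. Its log2 ratio of footprints to RNA, per length and relative to the median gene, was -1.68, -1.46 and -1.52 in *Mael*+/- extracts 1 to 3 and -1.58, -1.52 and -1.64 in the *Mael*-/- extracts. All 6 extracts were low, within a narrow band that the genotypes shared. The estimate of -1.54 (SE 0.10, edgeR adjusted p = 3.22e-09) was 2.91-fold below the median gene, and 3.07% of genes lay lower. Without the length correction it was -0.83, and *Atf4* at -1.21, *Ddit3* at -1.04 and *Eif4ebp1* at -1.49 then lay below it, all still called. For *Atf4* the values were -1.37, -1.34 and -1.66 in *Mael*+/- and -1.55, -1.37 and -1.53 in *Mael*-/-. All 6 were again low and overlapped between genotypes, at an estimate 2.72-fold below the median gene (log2 -1.44, SE 0.09, edgeR adjusted p = 1.66e-09), with 3.45% of genes lower. Footprints on the stretch where the upstream frame of 59 codons shares the coding region were counted with those of the coding region.

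*Ddit3* encodes CHOP, a transcription factor tied to cell death under lasting stress. Its ratio was -1.20, -1.06 and -1.52 in *Mael*+/- and -1.31, -1.21 and -1.14 in *Mael*-/-. None of the 6 values came near the median gene, and the estimate was 2.32-fold below it (log2 -1.22, SE 0.09, edgeR adjusted p = 1.41e-08). *Eif4ebp1* encodes a protein that holds the cap-binding factor eIF4E away from initiation, and its mRNA has no upstream ATG. It had -0.87, -1.02 and -0.88 in *Mael*+/- and -0.88, -1.22 and -1.09 in *Mael*-/-. It lay 1.97-fold below the median gene in the joint estimate (log2 -0.98, SE 0.10, edgeR adjusted p = 7.47e-07).

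*Sesn2*, whose product senses leucine and restrains mTORC1, and *Psat1*, an enzyme of serine synthesis, lay on the other side in all 6 extracts. *Sesn2* had 0.14, 0.15 and 0.17 in *Mael*+/- and 0.40, 0.29 and 0.04 in *Mael*-/-, for an estimate of 0.23 (SE 0.08, edgeR adjusted p = 0.0228). This call was lost without *Mael*+/- RNA replicate 1, *Mael*-/- RNA replicate 2, *Mael*+/- footprint replicate 3 or *Mael*-/- footprint replicate 1, at adjusted p of 0.0537 to 0.0691, and was kept with the libraries paired by extract (adjusted p = 0.000401). *Psat1* had 0.43, 0.08 and 0.40 in *Mael*+/- and 0.44, 0.24 and 0.35 in *Mael*-/-. Its estimate was 0.35 (SE 0.09, edgeR adjusted p = 0.00271), and its upstream frame runs into the coding region.

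The other 4 genes were not called. *Asns*, asparagine synthetase, was at -0.02 (95% CI -0.18 to 0.13), close to the median gene. *Atf3*, a factor induced early by many stresses, was at 0.10 (95% CI -0.45 to 0.65), with 5 extracts between 0.07 and 0.24 and *Mael*+/- extract 2 at -0.68. *Trib3*, a pseudokinase that restrains Akt and ATF4, was at -0.20 (95% CI -0.52 to 0.11), and *Chac1*, which cleaves glutathione, at -0.62 (95% CI -1.27 to 0.03). *Chac1* passed the test with the libraries paired by extract (edgeR adjusted p = 0.0214). The length correction decided 3 of the 4: without it *Asns* was called higher at 0.71, and *Atf3* at -0.80 and *Chac1* at -0.89 were called lower.

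**Figure D2:**
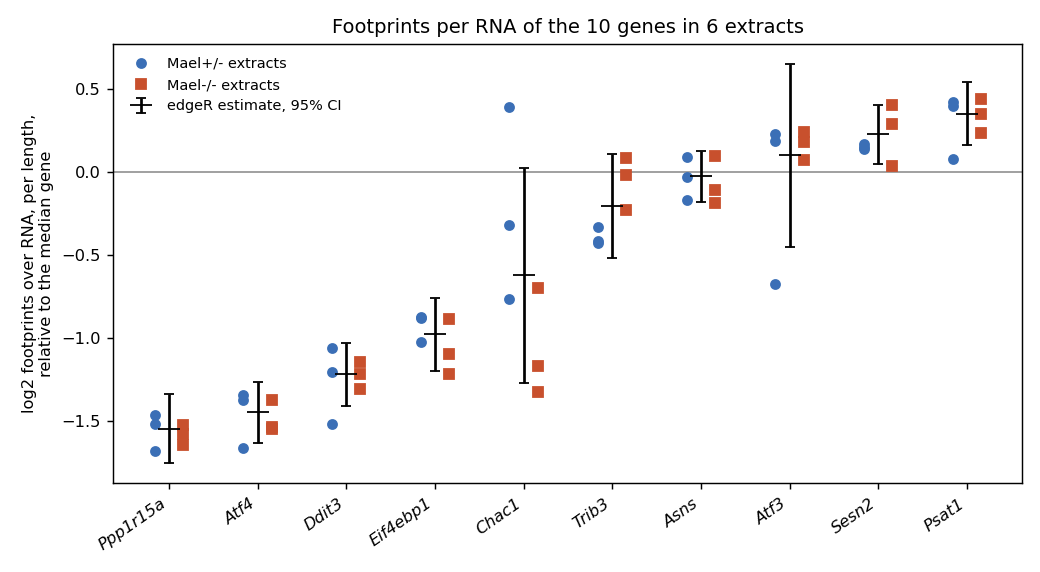
Log2 ratio of footprints to RNA per length, relative to the median gene of each extract (grey line at 0), for the 10 genes in 3 *Mael*+/- extracts (circles) and 3 *Mael*-/- extracts (squares), with edgeR's joint estimate and 95% confidence interval (bars). *Ppp1r15a*, *Atf4*, *Ddit3* and *Eif4ebp1* lie below the line in all 6 extracts, *Sesn2* and *Psat1* above it in all 6.

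Upstream ATGs as such went with little of this over all genes. The median log2 ratio was 0.02 in genes without one (51.5% of genes), -0.02 in genes with at least 1, and -0.07 in the 15.6% of genes with a frame that ran into the coding region. The quartiles of genes with at least 1 were -0.47 and 0.50, and *Atf4*, *Ppp1r15a* and *Ddit3* lay below them. Among 11 tested mRNAs listed for regulatory upstream frames, 6 were called lower and 1 higher, beside 33.4% and 35.4% of all genes. *Eprs*, *Cebpa* and *Cebpb* of this list had no upstream ATG in the mRNAs used, and *Eprs* was called lower at -0.84 (SE 0.05). *Odc1*, the rate-limiting enzyme of polyamine synthesis, was lowest at -3.01 (SE 0.09), followed by *Slc35a4* at -1.49 (SE 0.06) with 18 upstream ATGs, *Ifrd1* at -1.12 (SE 0.07) with 1, *Ibtk* at -0.86 (SE 0.06) with 4 and *Bace1* at -0.28 (SE 0.09) with 4. *Azin1*, the inhibitor of the ornithine decarboxylase antizyme, was higher at 0.35 (SE 0.09) with 6, and neither *Atf5* at -0.07 (SE 0.09) nor *Ppp1r15b* at 0.00 (SE 0.06), with 6 and 3 upstream ATGs, passed the test.

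Whether loss of *Mael* changed the pathway was asked at the level of RNA, of footprints and of footprints beyond RNA. None of the 10 genes was called in RNA at an adjusted p under 0.05 by edgeR or by DESeq2, where edgeR called 17 of 14685 genes (0.116%). At an unadjusted p under 0.05, 2 of the 10 passed, *Chac1* and *Ddit3*, both higher in *Mael*-/- and the same 2 with DESeq2, against 5.4% of all genes. These 2 were also the genes whose groups did not overlap with *Mael*-/- higher (5.23% of all genes), and none did not overlap with *Mael*-/- lower (5.03% of all genes).

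*Atf4* RNA was 140, 158 and 152 CPM in *Mael*+/- and 148, 147 and 183 CPM in *Mael*-/-. Apart from the last library the genotypes covered the same range, and the log2 difference, *Mael*-/- minus *Mael*+/-, was 0.09 (SE 0.11, edgeR adjusted p = 0.982). The 95% CI reached from 0.903-fold to 1.25-fold. *Atf4* footprints were 60.6, 70.2 and 53.7 CPM against 56.2, 63.8 and 70.4 CPM. These overlapped across their whole range, at a log2 difference of 0.04 (SE 0.13, edgeR adjusted p = 0.998).

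Among the factors downstream of ATF4, *Ddit3* was the only one with separate groups in both assays. Its RNA was 23.1, 19.6 and 24.5 CPM in *Mael*+/- and 28.2, 30.8 and 27.1 CPM in *Mael*-/-. Every *Mael*-/- library was above every *Mael*+/- library, by a log2 difference of 0.36 (SE 0.12) that did not pass (edgeR adjusted p = 0.846, unadjusted p = 0.0143). Its footprints were 10.8, 10.1 and 9.17 CPM against 12.1, 14.3 and 13.1 CPM, a log2 difference of 0.39 (SE 0.15, edgeR adjusted p = 0.998). The RNA and footprints came from the same extracts and are not independent of each other. *Atf3* RNA, in contrast, was 6.02, 10.5 and 15.5 CPM in *Mael*+/- and 8.88, 7.63 and 10.1 CPM in *Mael*-/-. The *Mael*+/- libraries alone spanned more than the other group, and the log2 difference of -0.27 (SE 0.29) had no settled direction, being 0.10 without *Mael*+/- RNA replicate 3.

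The largest difference among the 10 was in *Chac1* RNA, at few counts. The libraries held 21, 39 and 15 counts in *Mael*+/- and 50, 62 and 56 in *Mael*-/-, or 0.910, 1.43 and 0.567 CPM against 3.64, 3.07 and 2.04 CPM. Each *Mael*-/- library was above each *Mael*+/- library. The 2.96-fold difference (log2 1.56, SE 0.36, 95% CI 1.68-fold to 5.19-fold) had an edgeR adjusted p of 0.453 and an unadjusted p of 0.00164, and 99.8% of tested genes had a lower log2 difference. Under the alternatives the adjusted p ran from 0.0518 to 0.9996 and the difference stayed above 0 in each. *Chac1* footprints numbered 4, 7 and 6 counts against 15, 15 and 6, too few for the filter. Tested without the filter, their log2 difference was 0.84 (SE 0.49, edgeR adjusted p = 0.966).

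The enzymes and sensors of the amino acid arm had RNA differences above 0 that did not pass. *Asns* RNA was 89.0, 103 and 112 CPM in *Mael*+/- and 112, 116 and 122 CPM in *Mael*-/-, a log2 difference of 0.20 (SE 0.10). *Sesn2* RNA was 149, 170 and 189 CPM against 196, 186 and 199 CPM, at 0.19 (SE 0.10). *Psat1* RNA was 180, 200 and 220 CPM against 210, 198 and 236 CPM, at 0.10 (SE 0.10). In all 3 the *Mael*+/- group reached lower, and only single libraries overlapped in *Asns* and *Sesn2*. Of all tested genes 89.3% had a lower RNA difference than *Asns* and 88.1% a lower one than *Sesn2*. The feedback genes did not separate either: *Trib3* RNA differed by 0.24 (SE 0.20), *Ppp1r15a* RNA by 0.05 (SE 0.12) and *Eif4ebp1* RNA by 0.00 (SE 0.14) on the log2 scale. The adjusted p of edgeR was 0.939 to 0.999 for these 6 genes.

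**Figure D3:**
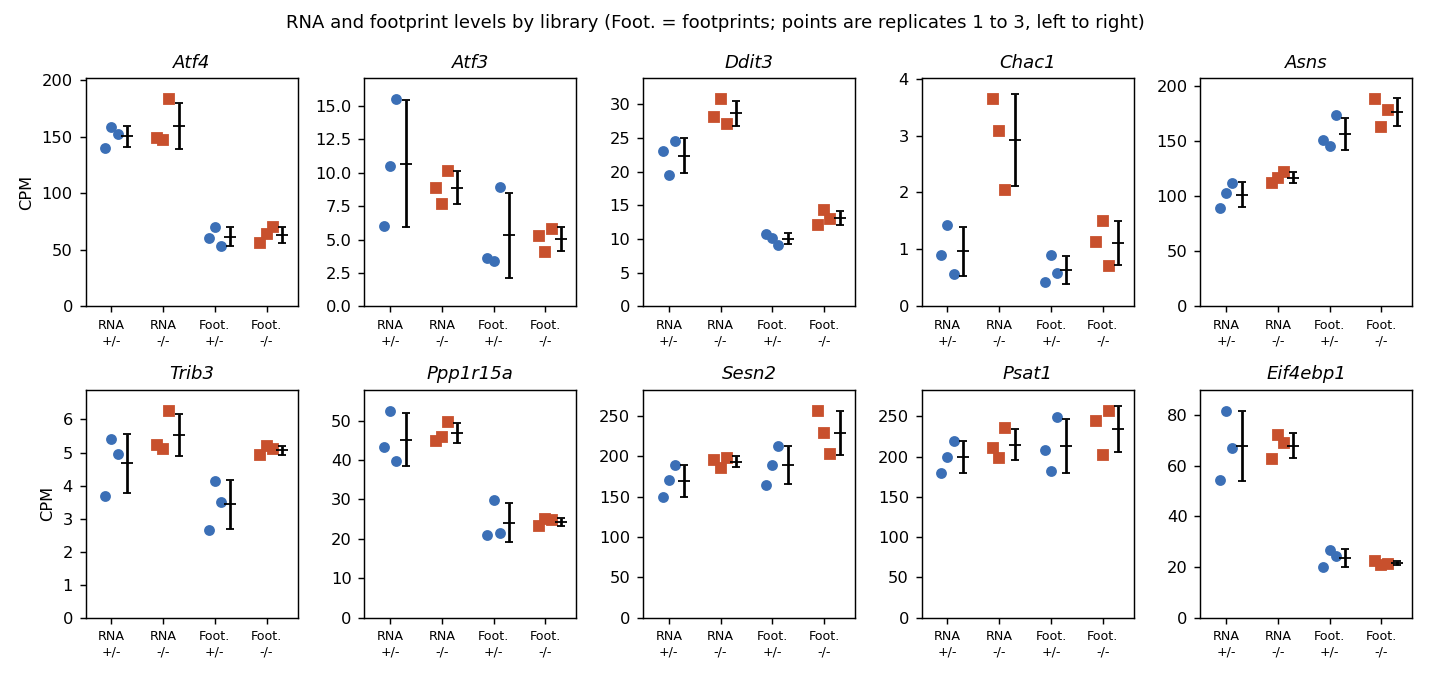
TMM-scaled CPM (linear axis from 0) of the 10 genes in RNA and footprint (Foot.) libraries, *Mael*+/- as circles and *Mael*-/- as squares, with mean and SD (n = 3) beside each group. *Chac1* and *Ddit3* RNA and *Ddit3* and *Trib3* footprints do not overlap between the genotypes, and the other groups do.

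In footprints, 9 genes could be tested and none was called by edgeR or DESeq2, where edgeR called 8 of 13500 genes (0.0593%). At an unadjusted p under 0.05, 3 of the 9 passed, *Ddit3*, *Trib3* and *Sesn2*, against 4.33% of all genes, while DESeq2 gave 1, *Sesn2*. *Ddit3* and *Trib3* did not overlap with *Mael*-/- higher (4.24% of all genes), and none did not overlap with *Mael*-/- lower (4.85% of all genes). *Trib3* had 2.65, 4.14 and 3.51 CPM in *Mael*+/- and 4.92, 5.19 and 5.10 CPM in *Mael*-/-, from 25 to 65 counts. The *Mael*-/- libraries lay close together above the others, at a log2 difference of 0.57 (SE 0.23, edgeR adjusted p = 0.998). *Sesn2* footprints were 165, 189 and 213 CPM against 257, 229 and 202 CPM and overlapped in 1 library, at 0.28 (SE 0.12). The lowest value was that of *Eif4ebp1* at -0.13 (SE 0.14).

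By sign, 9 of the 10 genes were above 0 in RNA, with a median log2 difference of 0.15 against 0.00 for all genes tested, and 7 of 9 in footprints, with a median of 0.13 against -0.01. The 9 include *Eif4ebp1* at 0.00 (SE 0.14), whose sign depended on the processing. The genes share libraries, so their signs are not independent, and the share of all genes above 0 was not counted. Without *Mael*+/- RNA replicate 1, the library with high pachytene markers, the RNA median was 0.07. At an unadjusted p under 0.05, 3 of the 10 genes passed, beside 953 of all 14876 genes in that fit. The 3 were *Chac1* and *Ddit3* as higher and *Atf3* as lower, at -0.55. Without *Mael*+/- footprint replicate 1, the footprint median was 0.13. Of the 10 genes then tested 1 passed at an unadjusted p under 0.05, *Ddit3*, beside 835 of all 13654 genes. Pachytene marker sums did not overlap in RNA (296 to 801 CPM in *Mael*+/-, 240 to 273 CPM in *Mael*-/-), with the 801 from extract 1 alone. Nor did sums of 5 markers of peritubular myoid cells (879 to 923 CPM against 990 to 1042 CPM). In footprints both overlapped, at 278 to 931 CPM against 236 to 282 CPM and 1145 to 1417 CPM against 1394 to 1722 CPM. The 9 early meiotic prophase markers overlapped in RNA, at 875 to 2210 CPM against 842 to 1184 CPM. The 10 macrophage markers were at 191 to 320 CPM against 298 to 307 CPM, and 14 immediate early genes, which many stimuli induce quickly, at 313 to 475 CPM against 335 to 384 CPM. No marker of these lists was at 0 throughout a group of RNA libraries. The part of these differences in the values above was not tested.

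The change of footprints beyond RNA, the translational readout of the pathway, was tested as the interaction of assay and genotype. None of the 10 genes was called by edgeR or DESeq2, nor was any of the 14374 genes tested (0% of genes). At an unadjusted p under 0.05 none of the 10 passed with either tool, against 83 genes (0.577%) by edgeR. That share is far below the threshold itself, so the unpaired p-values were conservative. With the libraries paired by extract, none of the 10 passed either, against 319 of all genes. For *Atf4* the log2 change was -0.04 (SE 0.17), with a 95% CI of -0.41 to 0.32, or 0.755-fold to 1.25-fold. With the libraries paired by extract the interval was -0.26 to 0.19. The unpaired intervals of *Ddit3* (-0.34 to 0.41) and *Ppp1r15a* (-0.45 to 0.38), the other genes whose upstream frames were shown, were of like width. Paired by extract, they were -0.27 to 0.36 and -0.28 to 0.21. Of the 10 unpaired intervals 8 lay within 1 log2 unit on either side of 0, those of *Atf3* (-0.93 to 1.28) and *Chac1* (-2.05 to 0.62) being wider. Of the paired intervals 9 did, all but that of *Chac1* (-1.86 to 0.22). The highest estimate was that of *Trib3* at 0.32 (SE 0.29), whose ratio of footprints to RNA was -0.41, -0.33 and -0.43 in the *Mael*+/- extracts and -0.01, 0.09 and -0.22 in the *Mael*-/- extracts. The groups did not overlap, but how many of all genes separate in this ratio was not counted, so this is not read as a change in *Trib3*. The edgeR adjusted p was 1 (unadjusted p = 0.289).

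**Figure D4:**
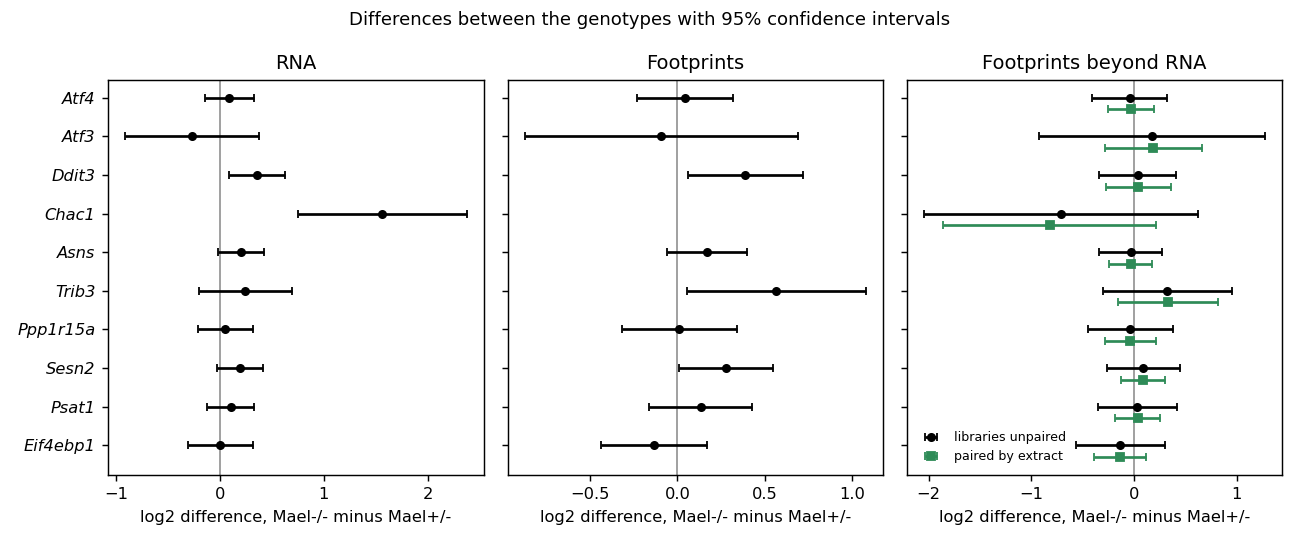
Log2 differences between the genotypes (*Mael*-/- minus *Mael*+/-) in RNA, in footprints and in footprints beyond RNA, with 95% confidence intervals (bars) for the 10 genes. *Chac1* has no footprint value because its counts were below the filter, and in the right panel all intervals include 0, both for unpaired libraries (circles) and paired by extract (squares).

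Across the 6 extracts RNA and footprints of each gene were compared within the gene. Pearson's r of log2 CPM was 0.606 in *Atf4* (rho = 0.486), the lowest, and 0.892 in *Ppp1r15a* (rho = 0.886), the highest. In *Ppp1r15a* the exact permutation p was 0.0222 for r and 0.0333 for rho, and over the 10 genes the Benjamini-Hochberg adjusted values were 0.128 to 0.208 for r and 0.257 to 0.419 for rho, so none passed. Without the 2 extracts farthest from the median RNA level, r was 0.504 in *Atf4* and 0.785 in *Ppp1r15a*. It fell to 0.321 in *Trib3*, -0.02 in *Atf3*, -0.07 in *Sesn2* and -0.53 in *Eif4ebp1*, and rose to 0.888 in *Chac1* and 0.884 in *Psat1*. Leaving out the farthest extracts narrows the range, which by itself tends to lower r, and these values were not tested. Extract 1 of *Mael*+/- was among the 2 left out in 7 genes. Between genes, over the 12 libraries centred within each assay, the 36 pairs of the 9 genes with enough counts had a median r of 0.294 (range -0.398 to 0.842), with *Asns* and *Psat1* the most alike. Libraries share extract and depth, so these values describe the series only. The genes most like *Atf4* among 12536 were *Knop1* (r = 0.926), *Tmem223* (r = 0.901) and *Smg5* (r = 0.898). *Ppp1r15a* came closest of the 10 genes, at rank 334 (r = 0.682), ahead of *Trib3* (r = 0.512), while *Asns* (r = 0.0911) and *Psat1* (r = 0.0245) showed little likeness.

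The wider pathway was read from 8 lists holding 108 other genes. None was called by edgeR in RNA (106 tested), footprints (103 tested) or footprints beyond RNA (104 tested). At an unadjusted p under 0.05, 7 genes (6.60%) passed in RNA, 6 (5.83%) in footprints and 1 (0.962%) in footprints beyond RNA, beside 5.4%, 4.33% and 0.577% of all genes. DESeq2 called 1 gene in RNA, *Herpud1*, which encodes an endoplasmic reticulum membrane protein that takes part in the removal of misfolded proteins. *Herpud1* RNA was 44.0 ± 3.08 CPM (SD, n = 3) in *Mael*+/- and 60.6 ± 4.64 CPM in *Mael*-/-, a log2 difference of 0.46 (SE 0.10, edgeR adjusted p = 0.376). Its footprints stood at 45.3 ± 3.71 CPM and 59.5 ± 4.72 CPM, with a log2 difference of 0.40 (SE 0.11, edgeR adjusted p = 0.750).

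Among 11 amino acid transporters 1 passed at an unadjusted p under 0.05 in RNA, *Slc7a3*, a carrier of cationic amino acids. It was at 0.472 ± 0.161 CPM in *Mael*+/- and 1.40 ± 0.392 CPM in *Mael*-/- (log2 difference 1.55, SE 0.37, edgeR adjusted p = 0.501), lower still than *Chac1*. Its footprints differed by 1.29 (SE 0.40, edgeR adjusted p = 0.960), and those of *Slc1a4*, a carrier of neutral amino acids, by 0.40 (SE 0.15). Of 14 enzymes of amino acid and one-carbon metabolism, *Cth*, which makes cysteine from cystathionine, was the 1 that passed at that level in RNA, at 0.62 (SE 0.25). The median of the transporters in RNA was 0.05, that of the enzymes 0.06 and that of 17 tested stress effectors 0.07, beside 0.00 for all genes. *Bbc3*, a stress effector that promotes apoptosis, went the other way in footprints, at 4.78 ± 0.720 CPM in *Mael*+/- and 3.02 ± 0.165 CPM in *Mael*-/- (log2 difference -0.67, SE 0.23, edgeR adjusted p = 0.998). It was the 1 gene of the lists that passed at an unadjusted p under 0.05 in footprints beyond RNA, at -0.74 (SE 0.29, edgeR adjusted p = 1).

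In the ATF6 and XBP1 branch of the unfolded protein response, the values below 0 depended in part on 1 extract. In RNA 11 of its 16 genes were lower in *Mael*-/-, and 4 passed at an unadjusted p under 0.05: *Calr* at -0.31 (SE 0.12), *Creld2* at -0.26 (SE 0.11), *Hspa5* at -0.26 (SE 0.11) and *Sdf2l1* at -0.36 (SE 0.16). These encode chaperones of the endoplasmic reticulum or their partners. Without *Mael*+/- RNA replicate 1, none of the 16 passed in that direction and 1 passed as higher, and the median went from -0.13 to -0.07. In footprints 12 of 16 were lower, and without *Mael*+/- footprint replicate 1 the median went from -0.10 to 0.00, with none passing as lower and 1 as higher. The 20 kinases, phosphatases and regulators of eIF2 had a median of 0.03 in RNA, within a range of -0.17 to 0.19, and none passed in RNA even at an unadjusted p under 0.05. *Eif2ak3*, the kinase PERK, was the second of them by p in RNA at 0.15 (SE 0.10). In footprints 1 of the 20 passed at that level, *Impact*, an inhibitor of the kinase GCN2, at 0.36 (SE 0.14, edgeR adjusted p = 0.998). The 10 other transcription factors had a median of 0.03 in RNA, and none passed at that level in either assay.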

How the data were processed

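The authors clipped linker and random bases from footprint reads with FASTX-Toolkit, removed ribosomal DNA reads with Bowtie 1.2.2, aligned both kinds of read to mm10 with STAR 2.6.0c and counted them with featureCounts (Subread 1.6.4), taking the full mRNA for RNA reads but coding sequence alone for footprints. The deposited table holds raw counts of 20620 genes and 5138235 repeat copies, of which the gene counts were used. The deposited DESeq2 tables hold the authors' own comparisons (fold changes and p-values) and were not used. Whether duplicates were collapsed is not given in the sources used here.

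The 10 genes and all lists were chosen with earlier results of these data known. Genes were filtered with filterByExpr, scaled by TMM within each assay and tested in edgeR 4.0.16 (R 4.3.3) with quasi-likelihood F-tests, two-sided, at a Benjamini-Hochberg adjusted p of 0.05 over all genes tested. RNA and footprints were fitted on 6 libraries each. Footprints beyond RNA, and footprints over RNA with offsets for RefSeq exon and coding length (20411 genes matched, 1183 by a synonym), were fitted on all 12 and the latter centred on the median gene. The log2 CPM used in correlations had a prior count of 1. The script for gene tests was checked on simulated counts, with no length offsets in footprints over RNA. Changed genes had a mean of at least 20 footprint counts in the real data. The simulated libraries were drawn independently, with no shared extracts and few genes changed. In footprints over RNA both assays were simulated at RNA levels. The rates that follow hold for those settings alone. Of 2-fold changes it found 82% in RNA, 84% in footprints, 61% in footprints beyond RNA and 94% in footprints over RNA. False calls were 6.74%, 7.58%, 7.23% and 3.0% of all calls in the same order.

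Named genes were the 10, *Mael*, up to 4 genes with the smallest p in RNA or footprints of each list, every gene called between the genotypes, and the 3 genes most like *Atf4* with a mean of at least 20 counts in each assay. In footprints over RNA, where 72 of 104 other genes were called, called genes were named for the list with upstream frames alone, a choice made after the values were seen. RNA and footprint libraries of 1 number and genotype came from the same extract per the methods, and their deviations correlated at 0.584 to 0.737 in *Mael*+/- and 0.219 to 0.237 in *Mael*-/- (13448 genes), so they were treated as pairs where pairing is named. The labels do not say whether replicates were separate animals, so p-values measure the spread between these samples. Alternatives were another scaling, no filter, blocks, DESeq2 1.42.0, other lengths and leaving out each library.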

Additional observations from a re-analysis of the deposited data

How the results depend on the processing

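The counts of the 10 genes called in RNA, footprints and footprints beyond RNA stayed at 0 under every alternative run. In footprints over RNA the count was 6 in the main fit and 5 to 9 under the alternatives. It was 9 without length offsets and with DESeq2, where *Asns*, *Atf3* and *Chac1* were called as well. The other pathway genes called in RNA numbered 1 with DESeq2, against 0. Over all genes a replicate block, or DESeq2, changed the number called in RNA from 17 to 50 or 66, and in footprints from 8 to 23 or 26. The labels do not say that same-numbered samples of the 2 genotypes shared more than a number. Their deviations correlated at 0.002 to 0.206, the highest near the 0.219 to 0.237 of RNA and footprints in *Mael*-/- extracts. Whether they shared a batch was not tested. None of the 10 genes was called in RNA or footprints with the replicate block.

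Small log2 differences changed sign. *Atf3* was 0.027 in footprints with the replicate block, and -0.80 in footprints over RNA both without length offsets and with DESeq2, which takes no lengths. *Asns* in footprints over RNA was 0.016 with no filter, 0.71 without length offsets and 0.72 with DESeq2. *Eif4ebp1* RNA was -0.0031 with median-of-ratios factors, -0.0049 with no filter and -0.0040 with DESeq2. With each library left out, or both of *Mael*+/- extract 1 (an alternative chosen after seeing the data), *Atf4* ran from -0.024 to 0.14 in RNA, -0.045 to 0.15 in footprints and -0.13 to 0.070 in footprints beyond RNA. *Atf3* ran from -0.55 to 0.10, -0.33 to 0.53 and -0.19 to 0.81 in the same order, and from -0.22 to 0.29 in footprints over RNA. *Ppp1r15a* ran from -0.032 to 0.18, -0.074 to 0.18 and -0.16 to 0.13. *Eif4ebp1* ran from -0.13 to 0.16 in RNA and -0.29 to 0.0044 in footprints beyond RNA. In footprints beyond RNA *Ddit3* ran from -0.036 to 0.12, *Asns* from -0.11 to 0.057 and *Psat1* from -0.067 to 0.16. *Asns* ran from -0.075 to 0.014 in footprints over RNA. The cause was not tested, other than for the lengths, which the alternative itself left out.

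Depth limits *Chac1* most, with 4 to 62 counts per library, then *Trib3* and *Atf3*. With 3 replicates per group, the intervals of footprints beyond RNA allow changes up to about the sizes given, and a missed threshold does not show that the genotypes were alike.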
